A study of Mus musculus with 4 samples.

Results

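The replication-dependent histone genes supply the core histones H2A, H2B, H3 and H4 and the linker histone H1, with which newly made DNA is packed. They were taken as every row of the expression table whose symbol began with Hist1, Hist2, Hist3 or Hist4, which gave 67 of 22556 genes. Of these, 6 encoded H1, 18 H2A, 18 H2B, 12 H3 and 13 H4 (2 entries, Hist2h3c2-ps and Hist3h2bb-ps, are named as pseudogenes). The Hist1 cluster held 53 members between positions 21715763 and 23934851 of chromosome 13 (GENCODE M21, GRCm38). Hist2 held 10 members on chromosome 3, between 96219865 and 96270132, Hist3 held 3 on chromosome 11, between 58948920 and 58956830, and Hist4 held 1 on chromosome 6, between 136801553 and 136804415.

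Most mRNAs end in a poly(A) tail, whereas those of replication-dependent histones end just after a short stem-loop that is bound by the stem-loop binding protein SLBP. Cells make them mainly in S phase, when the activator NPAT turns on their promoters, and destroy them when DNA synthesis stops. Some of these genes can also give a longer, polyadenylated mRNA from a site downstream of the stem-loop, which outlasts S phase, and replacement histones such as H3.3 and H2A.Z come from separate genes that are expressed throughout the cell cycle.

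The data were 4 RNA-seq libraries of whole lungs from E16.5 mice, 2 of Control and 2 of Shh-Stk11 embryos. Control embryos were Shh-Cre; Stk11 F/+ and Shh-Stk11 embryos Shh-Cre; Stk11 F/F, so every embryo carried the Cre driver and at least 1 floxed allele of Stk11, a serine/threonine kinase gene. The Cre was expressed from Shh, which is active in the epithelium of the developing lung, and the other cell types of the organ kept their Stk11. The labels gave C57BL/6 as the strain, whereas mixed backgrounds were described in the methods, and neither gave litter or sex or said whether libraries were selected for poly(A) tails.

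The targeted gene was lower in both Shh-Stk11 libraries. Stk11 was at 43.99 and 45.5 FPKM (reads per length of transcript, scaled to library depth) in Control and 29.5 and 26.0 FPKM in Shh-Stk11 lungs, a log2 fold change of -0.69 (limma adjusted p = 0.0499). All 6 lung epithelial markers were detected in every library and 0 passed the threshold in limma, against 2.27% of all genes. Their values did not overlap between genotypes in 5 of the 6, against 46.8% of all genes, in both directions: Nkx2-1 (log2 fold change 0.21), Cdh1 (0.49) and Sox9 (0.72) were higher in both Shh-Stk11 libraries, and Sox2 (-0.35) and Sftpc (-0.76) were lower, the last at 17426 and 15784 FPKM in Control against 8005 and 12048 FPKM. Depth recovered from the steps of low FPKM values was 30.9 to 38.1 M reads per library. The libraries differed in other respects. Shh-Stk11 2 had Xist, an RNA of female cells, at 0.239 FPKM against 65.1 to 169 FPKM in the others. Sex was not labeled, and it was not said whether a library came from 1 embryo or several. All 9 tested red blood cell genes had a negative log2 fold change, with a median of -0.56 and with 1 of 9, Hba-x, past the threshold, against 2.27% of all genes. The summed level of the red blood cell genes was 5724 and 5919 FPKM in Control against 3820 and 4199 FPKM in Shh-Stk11 lungs. In whole tissue, fewer cells of a type and less RNA per cell cannot be told apart, and the part of sex, blood or epithelium in the values below was not tested.

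To show what sets these transcripts apart, the stem-loop was searched in 1 GENCODE M21 transcript of each member. With up to 1 mismatch to its 16-letter consensus it was found in 42 of 67 transcripts, and without a mismatch in 32. The examples are written as DNA, from 5′ to 3′, with the stem-loop in capitals and 5 flanking bases on each side. Hist1h1c, Hist3h2a and Hist1h4i were 3 of the members with the highest levels, Hist1h4d had 1 of the largest fold changes, and Hist1h2bj and Hist1h2ab are shown as members whose annotated transcript stopped close behind the loop.
Hist1h1c: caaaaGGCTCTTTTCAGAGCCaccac
Hist3h2a: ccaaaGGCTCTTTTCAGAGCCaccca
Hist1h4i: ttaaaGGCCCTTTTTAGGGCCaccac
Hist1h4d: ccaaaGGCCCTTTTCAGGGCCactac
Hist1h2bj: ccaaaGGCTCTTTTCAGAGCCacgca
Hist1h2ab: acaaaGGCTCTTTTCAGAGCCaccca

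The likeness of these loops follows from the search, which allowed 1 mismatch. The annotated sequence behind them differed widely in length. It ran for 840 bases in Hist1h1c, 1643 in Hist3h2a, 330 in Hist1h4i and 770 in Hist1h4d, but for 23 bases in Hist1h2bj and 11 in Hist1h2ab. At least 100 bases followed the loop in 22 members, of which 16 had a mean of at least 0.5 FPKM and 0 were listed at 0 in all libraries. Fewer than 100 bases followed it in 20 members, of which 10 reached 0.5 FPKM and 6 were listed at 0. No such loop was found in the searched transcripts of the other 25 members, of which 10 reached 0.5 FPKM and 3 were listed at 0, and these included the highest member, Hist1h2bc. Their median length was 411 bases, and some, such as that of Hist1h4k with 312 bases, held the coding sequence alone. A loop behind the annotated end or in another transcript of the gene would have been missed, so these genes cannot be said to lack it. Of the 6 members of at least 10 FPKM, a loop was found in 3 and not found in 3. A poly(A) signal (AATAAA or ATTAAA) stood in the last 40 bases of the transcript in 15 members, of which 12 reached 0.5 FPKM, against 24 of the other 52. Among the 6 members with a mean of at least 10 FPKM, 4 had such a signal, compared with 11 of the 61 below that level. These counts are descriptions of annotated transcripts, and which 3′ end was used in these lungs was not measured.

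H2A and H2B genes often stand head to head. In 12 pairs the starts lay 173 to 306 bases apart on opposite strands. The promoter windows of 3 pairs are shown (RefSeq, GRCm38.p6, 250 bases before to 50 after the start of the H2A gene), because each window also held the start of the H2B gene and because the partners differed most in level. Capitals mark the octamer ATTTGCAT, the CCAAT box and the TATAAA box on either strand, and none of these motifs contains another. The window of Hist1h2ac, at chr13:23683910-23684209 on the minus strand, is shared with Hist1h2bc, that of Hist2h2ac, at chr3:96220831-96221130 on the minus strand, with Hist2h2be, and that of Hist3h2a, at chr11:58954435-58954734 on the plus strand, with Hist3h2bb-ps.
Hist1h2ac: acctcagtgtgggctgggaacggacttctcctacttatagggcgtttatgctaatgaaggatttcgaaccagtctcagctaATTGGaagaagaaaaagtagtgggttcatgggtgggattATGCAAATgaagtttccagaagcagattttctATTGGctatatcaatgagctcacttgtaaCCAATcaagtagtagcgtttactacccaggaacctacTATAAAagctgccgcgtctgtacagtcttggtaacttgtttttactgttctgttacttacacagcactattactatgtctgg
Hist2h2ac: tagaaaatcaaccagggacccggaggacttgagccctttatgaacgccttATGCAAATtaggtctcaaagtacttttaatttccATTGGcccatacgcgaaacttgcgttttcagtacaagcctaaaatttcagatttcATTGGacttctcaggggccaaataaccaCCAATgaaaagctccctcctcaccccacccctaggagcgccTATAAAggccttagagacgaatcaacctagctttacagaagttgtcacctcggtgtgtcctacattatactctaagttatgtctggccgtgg
Hist3h2a: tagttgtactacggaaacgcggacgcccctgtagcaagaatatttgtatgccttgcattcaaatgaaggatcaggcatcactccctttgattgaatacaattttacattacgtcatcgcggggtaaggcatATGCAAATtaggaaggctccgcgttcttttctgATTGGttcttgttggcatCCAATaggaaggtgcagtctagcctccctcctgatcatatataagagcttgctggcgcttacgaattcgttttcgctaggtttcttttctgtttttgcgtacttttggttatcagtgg

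In these 3 pairs, chosen for it, the levels were unlike. Hist1h2bc was at a mean of 53.9 FPKM and Hist1h2ac, 251 bases away, at 0.931 FPKM, a ratio of 57.9. Hist2h2be was at 10.7 FPKM against 0.427 FPKM for Hist2h2ac, a ratio of 25.0. In the Hist3 pair it was the H2A gene that was higher, with 11.8 FPKM for Hist3h2a and 0.14 FPKM for the pseudogene. In the other 6 of the 9 pairs with both partners above 0, the ratio of H2B to H2A lay between 0.327 and 2.61, as for Hist1h2ae and Hist1h2bg at 2.06 and 2.58 FPKM (1.25) and for Hist1h2an and Hist1h2bp (0.918), and both partners of 2 pairs were listed at 0 in every library. Over the 60 members with a RefSeq promoter, ATTTGCAT was found in 7 of 17 H2A and 7 of 15 H2B promoters and in 0 of the H1, H3 and H4 promoters, against 1.74% of all 32851 promoters of the same length. The CCAAT box was found in 51 of 60, including each H1, H2A, H2B and H3 promoter and 3 of 12 H4 promoters, against 37.4% of all promoters. TATAAA was found in 35 of 60, against 13.6%.

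The levels of the 67 members were low and uneven. By mean FPKM over the 4 libraries, 6 were at or above 10, 15 lay between 1 and 10, 15 between 0.5 and 1 and 22 above 0 but below 0.5, and 9 were listed at 0 in every library. The 36 members at or above 0.5 FPKM were tested, and the filter fell between Hist1h3e at 0.553 FPKM and Hist1h3i at 0.498 FPKM. Hist1h2af reached a mean of 10 FPKM through Control 2 alone. The 5 highest members (Hist1h2bc, Hist1h1c, Hist1h4i, Hist3h2a and Hist2h2be, singled out after their values were seen) held 69.4% and 57.1% of the summed FPKM of all members in the Control libraries and 68.0% and 72.0% in the Shh-Stk11 libraries. Hist1h2af was kept in these totals, and its 31.1 FPKM in Control 2 lowered the share of the 5 in that library. The testis members were at or near the floor: Hist1h2aa and Hist1h2ba were listed at 0, and the testis linker histone Hist1h1t lay between 0.0853 and 0.224 FPKM.

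**Figure D1:**
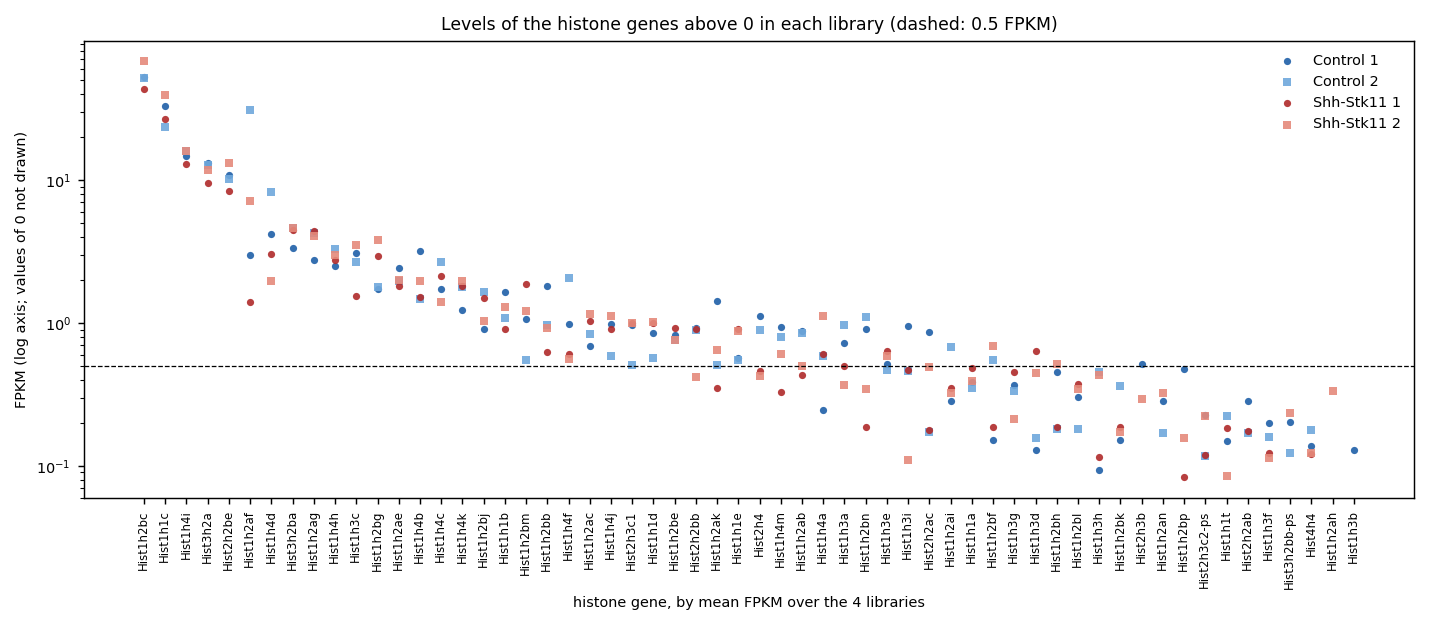
FPKM of the histone genes above 0 in each of the 4 libraries, on a log axis, ordered by mean level. Blue marks are Control and red marks Shh-Stk11 libraries, and values of 0 are not drawn. The 6 genes on the left have a mean of at least 10 FPKM, and Hist1h2af stands out because Control 2 is at 31.1 FPKM and Shh-Stk11 1 at 1.40 FPKM.

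The classes were unequal in summed FPKM, although a nucleosome holds the 4 core histones in equal number. H2B genes summed to 76.6 and 75.6 FPKM in Control and 66.5 and 96.2 FPKM in Shh-Stk11 lungs. H3 genes summed to 7.91 and 6.29 FPKM in Control and 5.60 and 7.32 FPKM in Shh-Stk11 lungs, below every other class in each library. H4 genes summed to 32.0, 38.6, 27.1 and 30.2 FPKM, with the 2 Control libraries first, an order kept wherever 4 values are given. H1 genes summed to 36.9, 26.5, 30.5 and 42.9 FPKM and H2A genes to 26.0, 53.5, 19.7 and 28.8 FPKM. In each class the values of the genotypes overlapped, except in H4, where both Shh-Stk11 values lay below both Control values. Over all members the sums were 179 and 200.5 FPKM in Control and 149 and 205 FPKM in Shh-Stk11 lungs. The replacement histone genes, by comparison, summed to 1824 to 2133 FPKM over 11 genes.

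**Figure D2:**
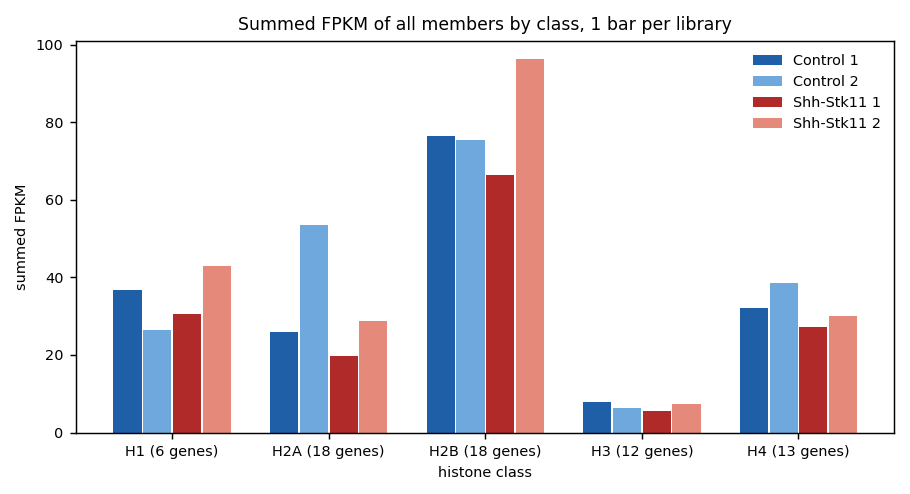
Summed FPKM of all members of each histone class, with 1 bar per library and the axis starting at 0. H2B is the highest and H3 the lowest class in each library, and the H2A bar of Control 2 contains the 31.1 FPKM of Hist1h2af.

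Copies of these genes resemble each other closely, which bears on the levels. The coding sequence of each member was cut into all windows of 50 bases, the read length, and a window was called the gene's own if it occurred in no transcript of another gene. Genes whose positions overlapped the member were set aside in this, so that a window shared only with them still counted as own. The median share of own windows was 89.1% in H1, 16.1% in H2A, 25.9% in H2B, 15.3% in H3 and 29.7% in H4. Of 66 members with a coding sequence, 16 had at least 50% own windows and 11 had 0%. Of these 11, 7 were listed at 0 in all libraries. The other 2 members listed at 0 were the testis genes Hist1h2aa, with 97.7% own windows, and Hist1h2ba, with 61.8%. The median share was thus 0% in the 9 members listed at 0 and 28.2% in the other 57. The handling of reads with several matches was not given in the sources used here, and a value of 0 in such a gene gives no limit on its expression.

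**Figure D3:**
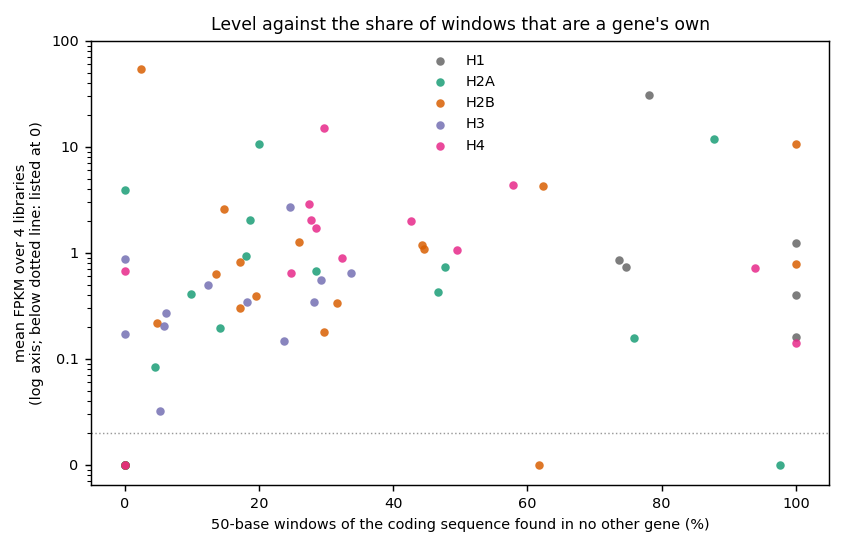
Mean FPKM over the 4 libraries (log axis, genes listed at 0 drawn below the dotted line) against the percentage of 50-base coding windows found in no other gene, with 1 point per histone gene and colors for the classes. Genes whose positions overlap the histone gene were set aside. Of the 9 genes listed at 0, 7 lie on top of each other at 0%, and the 2 others are testis genes at 61.8% and 97.7%.

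The FPKM steps also gave the number of reads for 38 members. The gene length in the authors' model matched the coding sequence alone in 25 of them, a RefSeq length in 9 and a GENCODE transcript length in 4. These matches depended on the bases taken off the model lengths, and the read numbers follow from the matched length. The matches are therefore no independent evidence of the authors' model. Hist1h2ag, with 0% own coding windows, was given 28, 36, 36 and 36 reads by its match to a RefSeq length, and these enter the sums below. The median was 4 reads per member and library, and 33 of the 38 had at most 10 reads in every library. Hist1h2af had the most, with 21, 182, 8 and 44 reads. Over the 37 resolved members without it, there were 223 and 206 reads in Control and 162 and 171 reads in Shh-Stk11 lungs. Per M reads of the library these were 5.85 (95% Poisson interval 5.11 to 6.67), 6.51 (5.66 to 7.47), 5.24 (4.47 to 6.12) and 5.14 (4.40 to 5.97). Both Shh-Stk11 values lay below both Control values, but the interval of each Shh-Stk11 library overlapped that of each Control library. With Hist1h2af the values were 6.40, 12.3, 5.50 and 6.46 per M reads, and the groups overlapped. The intervals cover counting error only and take the matched lengths as given. The highest members had more reads, with at least 547 reads in Control 1 for Hist1h1c and 346 for Hist1h2bc if the model was the coding sequence.

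To ask whether histone genes depended on epithelial Stk11, the genotypes were compared with limma on log2(FPKM + 0.1) over 13770 genes, with Benjamini-Hochberg adjustment. None of the 36 tested members passed an adjusted p of 0.05 (0 of 36), compared with 2.27% of all genes. The smallest adjusted p was 0.0848. At an unadjusted p below 0.05 there were 8 members, or 22.2%, 2 higher and 6 lower in Shh-Stk11 lungs, against 15.2% of all genes. Of these 6 lower members, 4 (Hist1h2ab, Hist1h2bn, Hist1h3a and Hist2h4) had a mean below 0.5 FPKM in Shh-Stk11 lungs and passed the filter through Control alone, so that nothing is read from the count or its direction. The groups did not overlap in 18 members, or 50%, 9 in each direction, against 46.8% of all genes. These 18 also held members that passed the filter through the higher group alone. They were Hist1h2ab, Hist1h2bn, Hist1h3a, Hist1h4m and Hist2h4 through Control, and Hist1h3e and Hist1h4a through Shh-Stk11 lungs. Nothing is read from this count or its balance either. The median log2 fold change was -0.05 over the 36 members and -0.05 over all genes tested. By class the median was 0.35 for 4 H1, -0.28 for 7 H2A, 0.04 for 10 H2B, -0.0042 for 4 H3 and -0.29 for 11 H4 genes. Precision was lower than for the typical gene, as the median standard error was 0.30 for the members and 0.16 over all genes. Short transcripts had lower log2 fold changes in general, with a median of -0.22 over 460 tested genes with transcripts of at most 800 bases. When the trend with transcript length and GC content was removed, the median of the members became 0.08, that of H2B 0.12, that of H3 0.24 and that of H4 0.09, so that the signs over all members, in H3 and in H4 turned with this step. The median over all members also depended on single libraries: leaving out Shh-Stk11 2 gave -0.16, and leaving out Shh-Stk11 1 gave 0.00060.

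**Figure D4:**
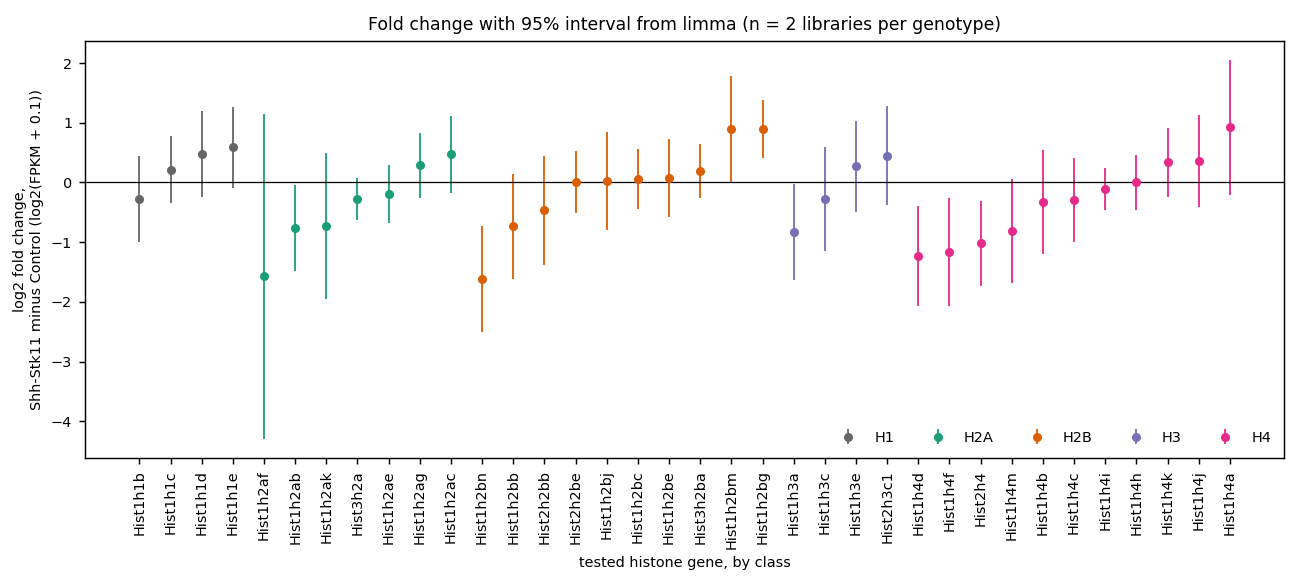
Log2 fold change (Shh-Stk11 minus Control, on log2(FPKM + 0.1)) of the 36 tested histone genes by class, with 95% intervals from limma and n = 2 libraries per genotype. Values above and below 0 occur in every class, and the interval of Hist1h2af runs from -4.29 to 1.15.

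Among linker histones, Hist1h1c, a replication-dependent H1 subtype that is also known in a polyadenylated form, was at 33.3 and 23.7 FPKM in Control and 27.0 and 39.3 FPKM in Shh-Stk11 lungs. Control 2 was the lowest and Shh-Stk11 2 the highest library, and the groups overlapped (log2 fold change 0.21, 95% interval -0.34 to 0.77). Without Control 2 or without Shh-Stk11 2 the sign turned, to -0.03 and -0.06. Hist1h1b, another H1 subtype, was at 1.64, 1.09, 0.906 and 1.29 FPKM, which also overlapped (log2 fold change -0.28, and -0.0063 without Control 1).

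Among H2A genes, Hist3h2a was at 13.1 and 12.8 FPKM in Control and 9.57 and 11.8 FPKM in Shh-Stk11 lungs. The values in both were below those of Control, but the difference did not pass the test (log2 fold change -0.28, SE 0.15, limma adjusted p = 0.434). Of its coding windows, 87.8% were its own. Hist1h2af was at 2.97 and 31.1 FPKM in Control and 1.40 and 7.14 FPKM in Shh-Stk11 lungs. Its mean of at least 10 FPKM came from Control 2 alone, and its log2 fold change of -1.57 (SE 1.13, limma adjusted p = 0.572) became 0.10 without that library. Only 20.1% of its coding windows were its own. Hist1h2ac was at 0.688 and 0.844 FPKM in Control and 1.03 and 1.16 FPKM in Shh-Stk11 lungs, with no overlap and a log2 fold change of 0.47 (95% interval -0.17 to 1.11).

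Among H2B genes, Hist1h2bc had the highest level of any member, at 52.5 and 51.7 FPKM in Control and 43.7 and 67.7 FPKM in Shh-Stk11 lungs. The Control values lay between the Shh-Stk11 values (log2 fold change 0.06, 95% interval -0.44 to 0.57), and without Shh-Stk11 2 the log2 fold change was -0.25. Of its coding windows, 2.41% were its own, and of all windows of its transcript 69.4%, so that its level and its ratio to Hist1h2ac are uncertain. Hist2h2be was at 10.8 and 10.2 FPKM in Control and 8.43 and 13.2 FPKM in Shh-Stk11 lungs, with the same order of libraries at the extremes (log2 fold change 0.01, 95% interval -0.52 to 0.53; -0.04 without Control 2 and -0.32 without Shh-Stk11 2). All of its coding windows were its own, so that no other gene held the same stretches. Hist3h2ba was at 3.37, 4.603, 4.48 and 4.59 FPKM, where Control 1 was the lowest and the groups overlapped (log2 fold change 0.20, and -0.02 without Control 1).

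The member nearest to the threshold was the H2B gene Hist1h2bg, at 1.74 and 1.79 FPKM in Control and 2.94 and 3.84 FPKM in Shh-Stk11 lungs. Both Shh-Stk11 values were higher than both Control values, and the 95% interval of the log2 fold change of 0.89 ran from 0.41 to 1.38 (SE 0.20, limma adjusted p = 0.0848, between 0.0452 and 0.284 over the alternatives). Only 14.8% of its coding windows were its own. Hist1h2bn was lower in both Shh-Stk11 libraries, with 0.908 and 1.09 FPKM in Control and 0.187 and 0.347 FPKM in Shh-Stk11 lungs, with a log2 fold change of -1.62 (SE 0.37, limma adjusted p = 0.0896, between 0.0475 and 0.440 over the alternatives). These values stood for 6 and 6 reads in Control and 1 and 2 reads in Shh-Stk11 lungs, a ratio of reads per M reads of 0.272 with an exact interval of 0.0492 to 1.01. The gene passed the filter through Control alone. Hist1h2bm was at 1.06 and 0.547 FPKM in Control and 1.87 and 1.21 FPKM in Shh-Stk11 lungs, from 7, 3, 10 and 7 reads, a ratio of 1.85 with an interval of 0.799 to 4.52. At these read numbers the H2B genes with the largest fold changes could not be told from counting error, except that Hist1h2bg was not resolved into reads.

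Among H3 genes, Hist1h3c was at 3.08 and 2.67 FPKM in Control and 1.55 and 3.53 FPKM in Shh-Stk11 lungs. The groups overlapped, and its log2 fold change of -0.28 became 0.29 without Shh-Stk11 1. Hist2h3c1 was at 0.973, 0.508, 1.0 and 1.0 FPKM, with both Shh-Stk11 values above both Control values by a small margin over Control 1 (log2 fold change 0.45, 95% interval -0.39 to 1.28, and 0.04 without Control 2). None of its coding windows was its own.

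Among H4 genes, Hist1h4i had the highest level, at 14.8 and 16.04 FPKM in Control and 12.9 and 15.9 FPKM in Shh-Stk11 lungs. The groups overlapped (log2 fold change -0.11, 95% interval -0.46 to 0.25), and the sign turned to 0.04 without Shh-Stk11 1 and to 0.13 after removal of the length and GC trend. Hist1h4d was at 4.17 and 8.28 FPKM in Control and 3.03 and 1.97 FPKM in Shh-Stk11 lungs. Its groups did not overlap, and its 17, 28, 10 and 7 reads gave a ratio of reads per M reads of 0.411 with an interval of 0.220 to 0.732. With the spread between libraries counted, the log2 fold change of -1.23 (SE 0.35) had a limma adjusted p of 0.152, between 0.0130 and 0.451 over the alternatives, the lowest of which came from a crossed pairing of the libraries added after the data were seen. The largest positive value was that of Hist1h4a, at 0.245 and 0.592 FPKM in Control and 0.605 and 1.12 FPKM in Shh-Stk11 lungs. It stood for 1, 2, 2 and 4 reads, and the ratio of 2.17 had an interval of 0.464 to 13.4. Hist1h4a passed the filter only through the Shh-Stk11 libraries, so nothing is read from its place as the largest rise.

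The members known in polyadenylated form in other work were compared as a list. The expression data held 7 of its 8 genes and 6 were tested (Hist1h1c, Hist1h2ac, Hist1h2bc, Hist2h2be, Hist3h2a and Hist3h2ba). Their median log2 fold change was 0.13, with 5 positive and 1 negative value and 0 past the threshold, against 2.27% of all genes. This balance rested on Shh-Stk11 2, without which 2 values were positive and 4 negative and the median was -0.15, and with that trend of length and GC content removed the median was 0.24. Hist4h4, the lone Hist4 gene, lay between 0.121 and 0.178 FPKM, below the filter. RNAs that carry no poly(A) tail were set beside them. Of 3 such RNAs tested, Rmrp, the RNA of the RNase MRP complex, fell from 10.2 and 6.78 FPKM to 1.30 and 2.01 FPKM (log2 fold change -2.29, limma adjusted p = 0.0144, and -1.73 with 0.142 after removal of the length and GC trend). Rpph1, the RNA of RNase P, was at 3.75, 4.25, 2.99 and 1.26 FPKM (limma adjusted p = 0.269), and Terc, the telomerase RNA, was at 0.139, 0.668, 1.03 and 0.794 FPKM.

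Replication enzyme genes, the other output of S phase, varied between libraries in another way than histone genes. All 35 listed genes (Mcm2, Pcna, Rrm2 and others) were higher in Control 2 than in Control 1, with a median log2 difference of 0.58, and 0 of 35 were higher in Shh-Stk11 2 than in Shh-Stk11 1, with a median of -0.32. Of the 36 histone genes, 15 were higher in Control 2 than in Control 1 (median -0.05) and 24 were higher in Shh-Stk11 2 than in Shh-Stk11 1 (median 0.14). Of all genes tested, 7331 were higher in Control 2 and 7365 in Shh-Stk11 2. Of the 6 histone genes of at least 10 FPKM, Hist1h2af reached that level only through Control 2. Of the other 5, 1 was higher in Control 2 (Hist1h4i) and 5 of 5 were higher in Shh-Stk11 2, the library that also differed in Xist. For example, Hist1h1c was lower in Control 2 than in Control 1 and higher in Shh-Stk11 2 than in Shh-Stk11 1. The summed FPKM of the enzymes was 764 and 1121 in Control and 973 and 797 in Shh-Stk11 lungs, and that of the histone genes without Hist1h2af and the 5 highest was 51.9 and 55.0 in Control and 46.5 and 50.4 in Shh-Stk11 lungs. These are differences between single libraries and have no test. The heart muscle genes were also higher in Control 2 than in Control 1 and lower in Shh-Stk11 2 than in Shh-Stk11 1, in 5 of 5 tested, with a summed level of 109, 243, 139 and 53.4 FPKM, and the part of heart tissue in the enzyme values was not tested.

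**Figure D5:**
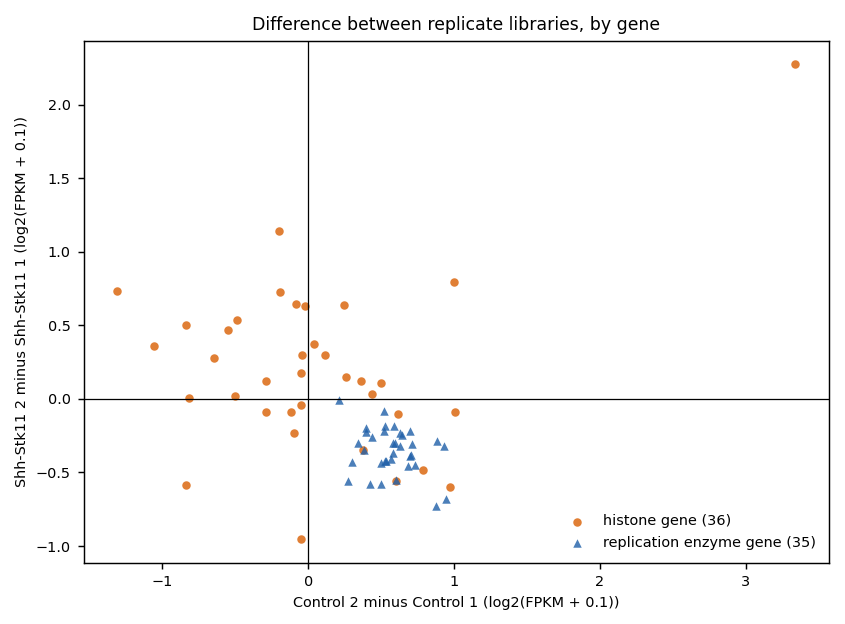
Difference between the replicate libraries of each genotype for the 36 tested histone genes (circles) and 35 replication enzyme genes (triangles), on log2(FPKM + 0.1), with Control on the horizontal and Shh-Stk11 on the vertical axis. All 35 enzyme genes lie to the right of 0 and below 0, whereas histone genes lie on all sides.

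Between genotypes, neither list passed the threshold. For the 35 replication enzymes 0 were past an adjusted p of 0.05 in limma, against 2.27% of all genes. An unadjusted p below 0.05 was found for 1 of them (2.86%), against 15.2% of all genes. The median log2 fold change was -0.08, and it was -0.35 without Control 1 and 0.18 without Control 2. The largest changes in the direction of the median were those of Gins2 (-0.28), the S-phase transcription factor gene E2f1 (-0.24) and Gins4 (-0.22). The gene with an unadjusted p below 0.05 went the other way. It was Pola1, which encodes the catalytic subunit of DNA polymerase alpha and is named after its values were seen, at 4.06 and 6.23 FPKM in Control against 9.94 and 6.75 FPKM, with no overlap (log2 fold change 0.69, limma adjusted p = 0.277, and 0.44 with 0.519 after removal of the length and GC trend). Gins2, a subunit gene of the replicative helicase, was at 18.1 and 33.4 FPKM in Control and 22.4 and 18.3 FPKM in Shh-Stk11 lungs, so that the Control libraries differed from each other more than the genotypes did.

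Genes that act on histone mRNA were expressed in every library. Slbp was at 44.2 and 57.3 FPKM in Control and 46.7 and 44.6 FPKM in Shh-Stk11 lungs, with a log2 fold change of -0.14. Of 16 such genes 0 passed the threshold in limma, against 2.27% of all genes, and the median log2 fold change was -0.02. An unadjusted p below 0.05 was found for 3 (18.8%), against 15.2% of all genes. Npat was at 4.34 and 5.34 FPKM in Control and 8.41 and 6.80 FPKM in Shh-Stk11 lungs. Both Shh-Stk11 values were higher, without passing the threshold (log2 fold change 0.64, SE 0.18, limma adjusted p = 0.141). After removal of the length and GC trend, its log2 fold change was 0.31 and the limma adjusted p 0.453. Its partner Casp8ap2, named after its values were seen, was at 1.38, 1.75, 3.62 and 2.32 FPKM (log2 fold change 0.86, limma adjusted p = 0.183, and 0.52 with 0.418 once the trend was removed). Lsm10, a component of the U7 snRNP that cleaves histone pre-mRNA, was at 24.6, 28.5, 20.7 and 21.6 FPKM (log2 fold change -0.32, limma adjusted p = 0.310, and -0.13 with 0.626 once the trend was removed), and Mif4gd, a partner of SLBP in translation, had a log2 fold change of -0.20.

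The replacement histone genes had a higher summed level, although the lowest of them lay below the highest replication-dependent genes. H3f3b, which encodes H3.3, was at 607 and 579 FPKM in Control and 577 and 717 FPKM in Shh-Stk11 lungs, with a log2 fold change of 0.12. H2afz, which encodes H2A.Z, was at 284 and 422 FPKM in Control and 287 and 294 FPKM in Shh-Stk11 lungs, with a log2 fold change of -0.25. Control 2 stood apart from the other 3 libraries in this gene. Of the 11 replacement genes 0 passed the threshold or had an unadjusted p below 0.05 in limma, against 2.27% and 15.2% of all genes. The median log2 fold change of these 11 was -0.11. The lowest values were those of H1fx (-0.31) and H2afx (-0.30), which encode H1.X and H2A.X, and after removal of the length and GC trend they were 0.04 and -0.10. Of 12 chaperone genes 0 passed the threshold in limma and 1 (8.33%) had an unadjusted p below 0.05, against 2.27% and 15.2% of all genes. The median log2 fold change of the chaperone genes was -0.10. Ipo4 (-0.26), Ssrp1 (-0.21) and Daxx (-0.19), which encode a histone importin, a FACT subunit and an H3.3 chaperone, had the largest changes in that direction. Atrx, the partner of Daxx, named after its values were seen, was at 8.20 and 7.79 FPKM in Control and 15.6 and 12.4 FPKM in Shh-Stk11 lungs, with a log2 fold change of 0.79 (limma adjusted p = 0.0599, and 0.269 after removal of the length and GC trend).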

How the data were processed

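Total RNA of whole E16.5 lungs was sequenced as single-end 50-base reads. The authors deposited FPKM values per gene and library, and the submitters' processing notes name TopHat2 2.0.13 and Cufflinks 2.2.1. Builds GRCm38 and mm9 were named without a role, so positions are those of the annotation. No count model was used on FPKM. Where low FPKM values were whole multiples of a step (76.7% of 1717 low genes, tolerance 0.02), steps gave reads, after 208 bases were taken off the model lengths of members and 210 bases off those of the long genes that gave the depth. Genotype was fitted, with no covariate, to log2(FPKM + 0.1) with limma 3.58.1 in R 4.3.3 (lmFit, eBayes with trend, mean of at least 0.5 FPKM, 13770 genes, two-sided, Benjamini-Hochberg, threshold 0.05), and was tested on simulated data. Fold changes on this scale understate those of low genes. With 2 libraries against 2, the smallest p of an exact permutation test is 0.333.

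Symbols were matched to GENCODE M21 and RefSeq. Members and lists were chosen with earlier results of these data known. By rule, the text names the 2 highest members per class, the 3 largest rises and falls, polyadenylated and testis members, and, per list, Slbp, Npat, H2afz, H3f3b, genes past the threshold and the 3 largest changes in the direction of the median. Nothing in the labels told separate litters from each other, so p-values measure the spread between these libraries. Alternatives were other pseudocounts, filters, scalings and variance settings, removal of the trend with transcript length and GC content, replicate number as a block, and leaving out each library. The correlation of deviations of same-numbered libraries was -0.11.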

Additional observations from a re-analysis of the deposited data

How the results depend on the processing

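The counts of members past the threshold (0 higher and 0 lower) were 0 under other pseudocounts, filters and scalings, and when any library was left out. They became 1 higher with the length and GC trend taken out (Hist1h2bg, log2 fold change 1.17, limma adjusted p = 0.0452) and 2 lower without the variance trend (Hist1h2bn, -1.62, and Hist2h4, -1.02, both with a limma adjusted p of 0.0475). Hist1h2bn and Hist2h4 passed the filter through Control alone, so nothing is read from their calls. Hist2h4 was named after its values were seen, and the cause of the calls was not tested.

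Over all genes, where 135 were higher and 178 lower, the counts were 20 and 41 without a filter, 81 and 114 with the length and GC trend taken out, and 15 to 64 higher and 23 to 127 lower when 1 library was left out. At a filter of 5 FPKM, 90 were lower. With replicate number as a block the counts were 6 and 7, and 8 and 8 with that block and the trend taken out together. The labels did not tie libraries of the same number to each other. Because same-numbered libraries deviated slightly in opposite directions, a crossed pairing was added after the data were seen, as a replicate block with Control 1 beside Shh-Stk11 2, and gave 360 genes higher and 315 lower, among them 1 histone gene higher and 1 lower.

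With the length and GC trend taken out, with or without the replicate block, the median log2 fold change was 0.080 over all members, 0.12 for H2B, 0.24 for H3 and 0.091 for H4, and Hist1h4i was at 0.13. At a filter of 0.1 FPKM the median was -0.17 over 56 members, and without a filter it was -0.17 over 58 members. Without a filter the H3 median was -0.20, and Hist2h2be was at -0.0022 after quantile normalization. When 1 library was left out, the median ranged from -0.16 to 0.00060 over all members, from 0.10 to 0.54 for H1, from -0.43 to -0.077 for H2A, from 0.013 to 0.093 for H2B, from -0.17 to 0.26 for H3 and from -0.26 to -0.051 for H4. It ranged from -0.30 to 0.0086 for replacement histones, from -0.077 to 0.063 for the genes acting on histone mRNA, from -0.35 to 0.18 for replication enzymes, from -0.15 to 0.35 for polyadenylated members and from -0.28 to 0.12 for chaperones. In the same fits, in which a lone library was assumed to vary like the other genotype, the log2 fold change ranged from -0.055 to 0.48 for Hist1h1c, from -3.24 to 0.10 for Hist1h2af, from -0.25 to 0.38 for Hist1h2bc, from -0.85 to 0.29 for Hist1h3c, from -0.26 to 0.042 for Hist1h4i, from -0.32 to 0.33 for Hist2h2be and from -0.021 to 0.42 for Hist3h2ba. It kept its sign in Hist1h2ac (0.34 to 0.60), Hist1h2bg (0.71 to 1.08), Hist1h2bm (0.47 to 1.31), Hist1h2bn (-1.94 to -1.30), Hist1h4a (0.43 to 1.43), Hist1h4d (-1.72 to -0.75) and Hist3h2a (-0.43 to -0.13).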
